A study of Homo sapiens with 12 samples.

Results

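Solute carriers are membrane proteins that move amino acids, sugars, organic acids, metals, ions and drugs across the plasma membrane and the membranes of organelles. The members described here are the listed genes whose symbol is SLC followed by a family number, A and a member number, or SLCO followed by a number, with the mitochondrial SLC25 family left out. This rule took 153 of the 8842 genes listed in the deposited RNA-seq tables, from 42 families. Of these, 6 carry the name of a carrier but encode something else: SLC7A6OS and SLC22A18AS are genes on the strand opposite a carrier, SLC9A3R1 and SLC9A3R2 are scaffold proteins, SLC4A1AP is an adaptor protein and SLC2A4RG is a transcription factor. They were kept under the rule, and the remaining 147 are carriers. In RefSeq, 315 protein-coding symbols match the rule, and 158 of these genes were listed, 8 under another symbol that the rule did not take. The other carriers were not analysed here.

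RNA-seq was performed in HepG2 and LM3 cells that had been transfected with siRNA against the lncRNA FASRL (siFASRL) or with a negative control siRNA (siNC), and RNA was harvested 48 h later. Each of the 4 groups had 3 replicates, which makes 12 libraries. The study asked how an lncRNA driven by a superenhancer acts on lipid metabolism in hepatocellular carcinoma (HCC). HepG2 is a human liver tumour line that is now often classed as hepatoblastoma, and LM3 is a human HCC line with high metastatic capacity. Which of the study's siRNAs against FASRL was used for these libraries is not given in the sources used here. The study reports that it checked the efficiency of the FASRL knockdown in both lines. FASRL itself was not analysed here, so the extent of the knockdown in these libraries is not given. The study states in general that work with cell lines was repeated, but does not say for these libraries whether the replicates were separate cultures, and p-values therefore measure the spread between these libraries, which may be technical.

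Hepatocytes take up amino acids, fatty acids, bile acids and drugs through solute carriers at their blood-facing membrane, and release glucose and ketone bodies through others. Tumour cells often shift toward carriers for glucose, glutamine and lactate that resting hepatocytes hardly use. Families differ in how they work: some exchange one substrate for another, some are driven by sodium or protons, and the heavy subunit SLC3A2 carries light subunits of the SLC7 family to the cell surface.

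The values are the authors' normalized RSEM values. Whether they are FPKM or TPM is not stated, the read depth is unknown, and no counting error can be given. Both are scaled by transcript length, so that levels of different genes are set side by side below as values per length. The 153 members together held between 0.820% and 0.864% of the summed value of all listed genes in HepG2 siNC libraries, 0.790% to 0.821% in HepG2 siFASRL, 0.706% to 0.718% in LM3 siNC and 0.604% to 0.611% in LM3 siFASRL. The sum of all listed genes was higher in siFASRL in both lines. In HepG2 the member sums themselves overlapped, at 2830, 2885 and 2773 in siNC and 2852, 2809 and 2764 in siFASRL. In LM3 they were 2235, 2301 and 2295 in siNC and 2120, 2128 and 2095 in siFASRL. The tests were run in each line alone with limma on log2(value + 1). A gene was tested where 3 or more of the 6 libraries held 1 or more, and p-values were adjusted over all tested genes by the Benjamini-Hochberg procedure. Adding 1 shrinks the log2 fold change of genes at low levels. A member is called past the threshold here when the adjusted p was under 0.05 and the log2 fold change at least 1 in size. With 3 libraries against 3, an exact permutation test of a single gene cannot give a two-sided p below 0.1, and every named member whose groups do not overlap is at that limit. Of the 153 members, 130 could be tested in HepG2, 106 in LM3, 101 in both and 18 in neither.

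The list of genes is itself selected by a rule that is not given. Among members with a mean value of at least 5, a log2 ratio from -0.20 to -0.04 was found for 0 of 88 in HepG2 and for 10 of 73 in LM3. Counts of unchanged or slightly lower members in HepG2 are therefore incomplete, and the counts of all members are given beside the shares of all tested genes of the list.

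The lines differ in hepatocyte character. All 10 listed genes of a list of 12 hepatocyte markers had a mean value of at least 1 in HepG2 siNC, and 2 had in LM3 siNC. Albumin (ALB) had a mean of 815 ± 31.7 in HepG2 siNC and 0.36 ± 0.28 in LM3 siNC (SD, n = 3). The marker values summed to 4069, 3995 and 3681 in the HepG2 siNC libraries and to 1840, 1746 and 1795 in HepG2 siFASRL, with SERPINA1 the most abundant. In LM3 they summed to 15.4, 18.4 and 17.6 in siNC and to 7.73, 8.01 and 6.70 in siFASRL, most of it HNF4A. Whether the carrier changes below depend on this marker loss was not tested. In bulk RNA, fewer cells of a kind and less RNA per cell cannot be told apart.

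In both lines more solute carriers fell than rose after FASRL knockdown. In HepG2, 88 of 130 tested members fell and 33 rose at an adjusted p under 0.05, and the median log2 fold change was -0.44. Over all tested genes, 44.3% fell and 44.8% rose, and the median was 0.10. In LM3, 67 of 106 members fell and 17 rose, with a median of -0.27, while 43.5% of all tested genes fell and 33.9% rose, with a median of -0.06. After quantile normalization of LM3 the numbers were 49 lower and 23 higher, so that the lower share of the calls went from 79.8% to 68.1%. The balance of all tested genes in LM3 turned round with the scaling, to 38.1% lower and 40.9% higher with median-of-ratios scaling and to 34.5% and 37.6% after quantile normalization. Past the threshold, 19 members were lower and 2 higher in HepG2, against 6.79% and 3.61% of all tested genes. In LM3, 12 members were lower, against 6.2% of all tested genes, and 0 were higher, against 1.42%. After quantile normalization 5 LM3 members were lower past the threshold, against 3.47% of all tested genes. At an unadjusted p under 0.05 limma likewise gave 0 members at least 1 log2 unit higher in LM3. Some members could be tested only because of the control: 9 of the 130 in HepG2 and 10 of the 106 in LM3 had no siFASRL library at 1 or more, and 5 and 4 of these were among the members past the threshold. For such members the filter allows only a fall. Without them, which was chosen after the data were seen, 14 of 121 members were lower past the threshold in HepG2 and 8 of 96 in LM3, against 6.1% and 5.3% of all genes left. Leaving out the 6 genes that are not carriers, 19 members were lower and 2 higher past the threshold in HepG2, and 9 lower and 0 higher in LM3.

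**Figure D1:**
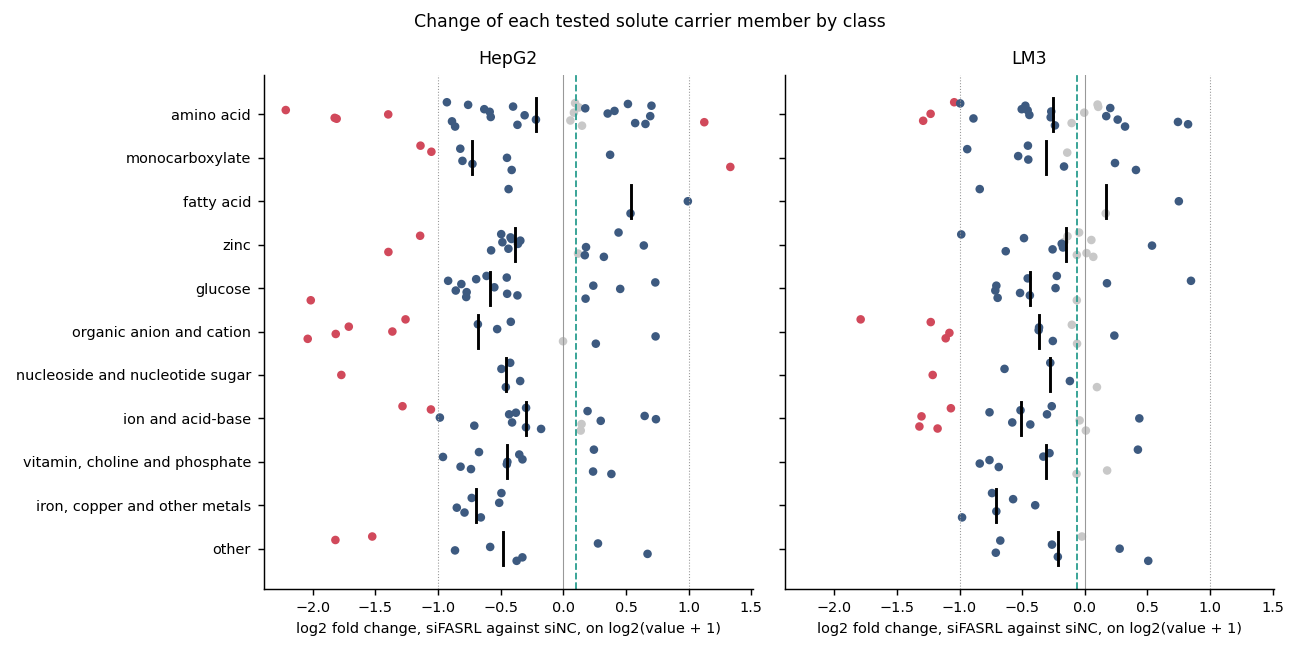
Log2 fold change of siFASRL against siNC for every tested member in HepG2 (130 members) and LM3 (106 members), on the log2(value + 1) scale, with 1 row of points per class, where red points are past the threshold, blue points have an adjusted p under 0.05, grey points do not, black bars are class medians, the dashed line is the median of all tested genes (0.10 in HepG2 and -0.06 in LM3) and dotted lines mark -1 and 1. Most points and all class medians but that of the fatty acid class lie left of 0.

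The change went with the level of the carrier. Among members with a mean value of at least 10 over the 6 HepG2 libraries, 25 of 62 rose and 30 fell, against 51.9% and 34% of all genes at that level. Among members under 10, 8 of 68 rose and 58 fell, against 34.6% and 59.3% of all genes at that level. In LM3, 13 of 55 members at or above 10 rose and 28 fell, against 41.7% and 33.4% of all such genes. Under 10, 4 of 51 rose and 39 fell, against 21.5% and 59.7%. The limit of 10 was chosen after the values were seen. The level includes the siFASRL libraries, so that a fall itself lowers it and a rise raises it. A split by the siNC level alone was not made. Members under 10 include the 9 of HepG2 and 10 of LM3 tested through the control alone. The filter allowed these only a fall, and the split was not made without them. Both in members and in all genes, low levels went with more lower than higher calls.

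**Figure D2:**
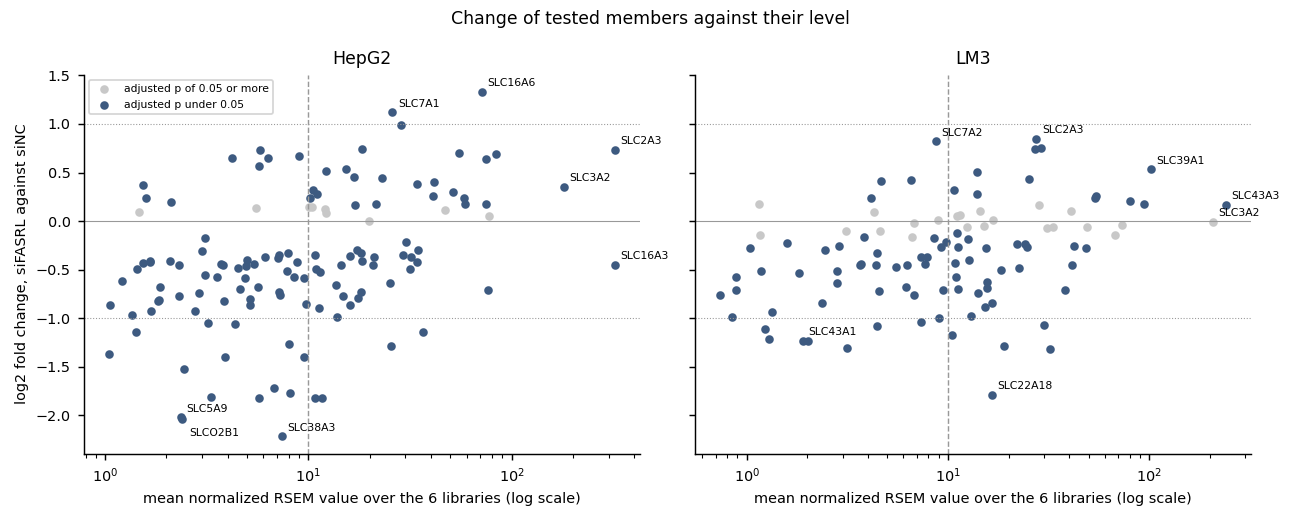
Log2 fold change of each tested member against its mean normalized RSEM value over the 6 libraries of the line, on a log axis, for HepG2 and LM3, where the dashed line marks a mean of 10 and dotted lines mark log2 fold changes of -1 and 1. Right of the dashed line 25 members rose and 30 fell in HepG2, and left of it 8 rose and 58 fell.

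Because the abundant carriers of several classes rose, the summed level of a class could rise while its median member fell. The 35 listed amino acid members summed to 711, 708 and 710.1 in HepG2 siNC and to 822, 791 and 779 in siFASRL. The 17 members of the glucose class summed to 439, 436 and 413 in HepG2 siNC and to 601, 580.1 and 563 in siFASRL. The 10 monocarboxylate members moved the other way, from 488, 527 and 456 in HepG2 siNC to 402, 424 and 409.8 in siFASRL. In none of these 3 sums did the HepG2 groups overlap. Without SLC2A3 the glucose sums of HepG2 overlapped, at 179.5, 195 and 189 in siNC and 174, 184 and 181 in siFASRL. In LM3 the glucose sums of both groups overlapped, at 208, 227 and 222 in siNC and 221, 225 and 217 in siFASRL, and so did the amino acid sums. The LM3 sums did not overlap for the zinc class (237, 230.4 and 227 in siNC, 247.2, 247.3 and 250.5 in siFASRL), the fatty acid class (43.7, 56.1 and 54.8 in siNC, 67.2, 69.4 and 67.0 in siFASRL) and the monocarboxylate class (181, 195 and 189.9 in siNC, 171, 175 and 174 in siFASRL). All sums are of the values without further scaling. The sum of all listed genes also rose without overlap. It was 333193, 334088 and 338379 in HepG2 siNC and 347211, 355094 and 350069 in HepG2 siFASRL. In LM3 it was 316534, 320399 and 321859 in siNC and 346884, 348573 and 347042.5 in siFASRL. Class sums were not taken as shares of these totals, so the LM3 rise of the zinc class is not set apart from that of the whole list. The LM3 size factors of median-of-ratios scaling were 0.953 to 0.961 in siFASRL and 1.02 to 1.03 in siNC. Whether the LM3 glucose, amino acid and monocarboxylate sums overlap therefore depends on the scaling.

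**Figure D3:**
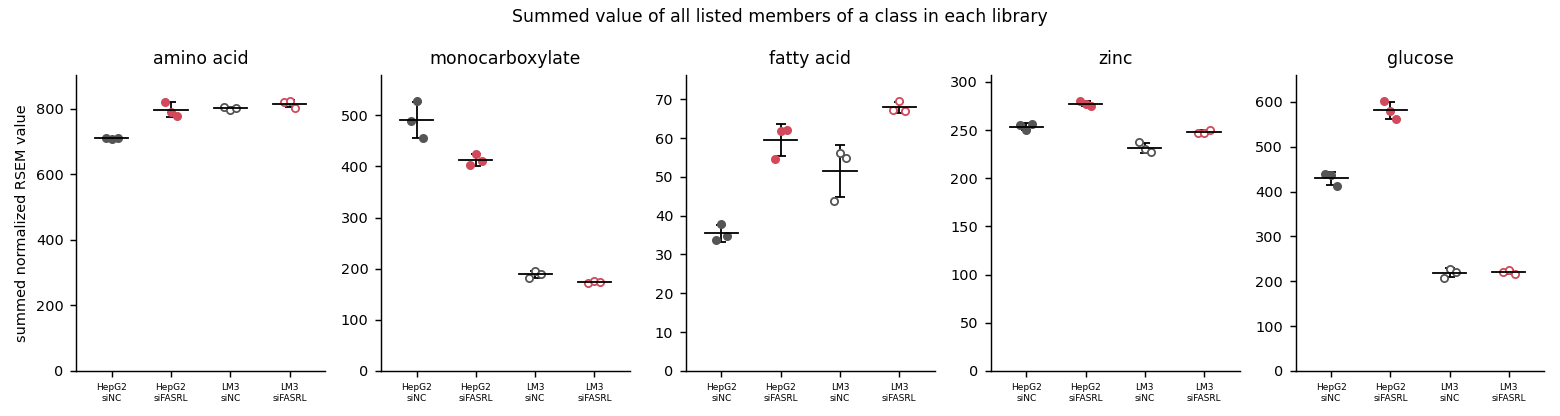
Summed normalized RSEM value of all listed members of the 5 classes in each library of the 4 groups, with the mean (bar) and SD (whiskers) of 3 replicates. In HepG2 the amino acid, fatty acid, zinc and glucose sums are higher in siFASRL and the monocarboxylate sum is lower, with no overlap between groups.

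The promoters of the members were searched for short motifs on both strands, from 250 bases before to 50 bases after the start that the RefSeq promoter table (GRCh38.p14) gives for each gene. For 24 of 119 members this start lies more than 1 kb inside the gene as RefSeq spans it. The table held these 119 of the 153 members and 27305 genes in all. CACGTG, the E-box, occurred in 11 of 119 member promoters (9.24%) and in 7.43% of all promoters. TGATGNAA, the amino acid response element, occurred in 5 (4.2%) against 3.67%. TGCACNC and TGCGCNC, the core of the metal response element, occurred in 14 (11.8%) and 27 (22.7%), against 11.9% and 20.0%. TGANTCA, the AP-1 element, occurred in 12 (10.1%) against 7.76%, and TCACNCCAC, the sterol response element, in 2 (1.68%) against 1.15%. Of the 5 members with a promoter in the table that were lower past the threshold in both lines, SLC43A1 and SLC12A7 hold CACGTG. Their promoters are shown with that of SLC7A1, which rose in both lines and holds TGATGAAA. Capitals mark every match to a searched motif, and a match is not evidence of a bound site. The sequences, written from 5′ to 3′ along the gene, lie at chr11:57515653-57515952 (minus strand), chr5:1112014-1112313 (minus strand) and chr13:29595639-29595938 (minus strand). The SLC12A7 window belongs to an inner start, 43836 bases inside the RefSeq span of the gene (chr5:1050384-1155899).
SLC43A1: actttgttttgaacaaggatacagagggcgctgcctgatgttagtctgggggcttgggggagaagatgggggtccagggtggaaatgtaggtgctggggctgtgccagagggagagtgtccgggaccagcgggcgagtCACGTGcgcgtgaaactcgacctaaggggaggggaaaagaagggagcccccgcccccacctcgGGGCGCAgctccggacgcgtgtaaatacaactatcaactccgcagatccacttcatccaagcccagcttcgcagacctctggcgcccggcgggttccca
SLC12A7: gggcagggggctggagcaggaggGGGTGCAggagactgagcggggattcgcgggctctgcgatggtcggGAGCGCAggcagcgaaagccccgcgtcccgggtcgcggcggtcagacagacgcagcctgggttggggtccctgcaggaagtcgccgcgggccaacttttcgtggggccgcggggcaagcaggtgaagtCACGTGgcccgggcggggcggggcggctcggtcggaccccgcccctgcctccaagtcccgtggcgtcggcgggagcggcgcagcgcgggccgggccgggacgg
SLC7A1: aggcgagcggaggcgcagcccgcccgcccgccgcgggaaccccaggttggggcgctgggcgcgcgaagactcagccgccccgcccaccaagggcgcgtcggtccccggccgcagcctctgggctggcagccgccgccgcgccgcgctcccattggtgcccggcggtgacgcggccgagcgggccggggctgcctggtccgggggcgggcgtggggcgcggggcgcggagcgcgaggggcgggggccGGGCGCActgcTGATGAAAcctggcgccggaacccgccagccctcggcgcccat

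Amino acid carriers were the largest class, with 35 listed members. In HepG2, 15 of 29 tested members fell and 9 rose (51.7% and 31.0%, against 44.3% and 44.8% of all tested genes), with a median log2 fold change of -0.22 that was 0.10 when only members at 5 or more were tested. In LM3, 12 of 22 fell and 6 rose (54.5% and 27.3%, against 43.5% and 33.9%), with a median of -0.25. Past the threshold, 4 members were lower and 1 higher in HepG2, against 6.79% and 3.61% of all tested genes, and 3 were lower and 0 higher in LM3, against 6.2% and 1.42%. The 3 in LM3 were 2 with median-of-ratios scaling and 1 after quantile normalization. Past the threshold in HepG2, SLC38A3, SLC6A12, SLC6A14 and SLC43A1 were lower and SLC7A1 was higher. In LM3, SLC6A9, SLC43A1 and SLC1A1 were lower.

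SLC38A3 (chr3:50205271-50221486 in GRCh38.p14) exchanges glutamine with sodium and protons in hepatocytes. Its values in HepG2 were 13.4, 12.3 and 12.9 in siNC and 2.2, 1.81 and 1.95 in siFASRL. The siFASRL libraries were all far below the siNC libraries (by limma a log2 fold change of -2.22 with a standard error of 0.065 and adjusted p = 1.63e-08), and the mean was 6.47-fold lower. In LM3 it was listed between 0 and 0.10 in all 6 libraries.

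SLC6A12 (chr12:183848-214157) takes up betaine and GABA. It had 10.1, 8.03 and 10.3 in siNC and 2.41, 1.70 and 1.76 in siFASRL in HepG2, with no overlap (by limma a log2 fold change of -1.83 with a standard error of 0.11 and adjusted p = 4.6e-07). SLC6A14, a sodium- and chloride-driven carrier of neutral and cationic amino acids on the X chromosome, had 7.18, 5.41 and 4.67 in siNC and 1.06, 0.70 and 0.97 in siFASRL in HepG2 (by limma a log2 fold change of -1.81 with a standard error of 0.13 and adjusted p = 1.05e-06). Both were under 0.31 in every LM3 library, and the groups of SLC6A14 overlapped there.

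SLC43A1 (chr11:57484534-57515702) carries branched-chain amino acids and phenylalanine without sodium, and fell past the threshold in both lines. In HepG2 it had 15.8, 13.0 and 13.8 in siNC and 4.87, 4.46 and 4.92 in siFASRL (by limma a log2 fold change of -1.40 with a standard error of 0.075 and adjusted p = 2.35e-07). In LM3, where it was lower throughout, it had 3.71, 2.83 and 2.67 in siNC and 0.53, 0.80 and 0.86 in siFASRL (by limma a log2 fold change of -1.23 with a standard error of 0.11 and adjusted p = 1.36e-05). The groups did not overlap in either line, SLC43A1 was tested in LM3 through the control alone, and its LM3 change was -0.82 after quantile normalization, short of the threshold.

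SLC6A9, the glycine carrier, and SLC1A1, a glutamate and cysteine carrier, fell in both lines and passed the threshold in LM3. SLC6A9 had 28.1, 26.9 and 27.4 in siNC and 10.5, 10.8 and 10.7 in siFASRL in LM3 (by limma a log2 fold change of -1.29 with a standard error of 0.048 and adjusted p = 2.6e-07). Its HepG2 libraries had 15.4, 14.6 and 15.0 in siNC and 8.45, 7.18 and 7.33 in siFASRL (by limma a log2 fold change of -0.89 with a standard error of 0.068 and adjusted p = 1.79e-06). The siFASRL libraries were the lower ones in both lines, and the LM3 change was the larger (difference of LM3 and HepG2 log2 fold changes -0.40, limma adjusted p = 0.00111). SLC1A1 fell from 10.2 ± 0.49 in siNC to 4.45 ± 0.18 in siFASRL (SD, n = 3) in LM3 (log2 fold change -1.04, adjusted p = 1.14e-06 by limma) and from 3.93 ± 0.19 in siNC to 1.59 ± 0.14 in siFASRL (SD, n = 3) in HepG2 (log2 fold change -0.93, adjusted p = 7.76e-07 by limma). Its mean was 2.30-fold lower in LM3 and 2.47-fold lower in HepG2, and with a pseudocount of 0.1 its HepG2 change passed the threshold too (-1.26). With median-of-ratios scaling its LM3 change was -0.96 and with quantile normalization -0.84, both short of the threshold.

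SLC7A1 (chr13:29509414-29595688) imports arginine, lysine and ornithine. In HepG2 it had 16.5, 15.6 and 15.7 in siNC and 36.8, 36.0 and 34.8 in siFASRL (by limma a log2 fold change of 1.12 with a standard error of 0.055 and adjusted p = 1.49e-07). In LM3 it had 20.0, 20.3 and 19.7 in siNC and 34.9, 33.9 and 33.5 in siFASRL (by limma a log2 fold change of 0.74 with a standard error of 0.047 and adjusted p = 2.7e-06). All siFASRL libraries of both lines lay above all siNC libraries, and the rise was smaller in LM3 (difference -0.38, limma adjusted p = 0.000291).

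The 3 amino acid members with the highest siNC levels over both lines rose in HepG2. SLC3A2, the heavy subunit, had 153, 168 and 155 in siNC and 208, 203 and 197 in siFASRL in HepG2 (by limma a log2 fold change of 0.35 with a standard error of 0.059 and adjusted p = 0.000326). LM3 libraries had 184, 220.4 and 217 in siNC and 202, 215 and 199.7 in siFASRL, with overlapping groups (log2 difference -0.0048, 95% confidence interval -0.18 to 0.17, limma adjusted p = 0.957), and the sign turned with median-of-ratios scaling (0.095). SLC43A3, which carries purine nucleobases although its family is counted with the amino acid carriers, rose from 63.7 ± 3.45 in siNC to 104 ± 4.52 in siFASRL (SD, n = 3) in HepG2 (log2 fold change 0.69, adjusted p = 5.35e-06 by limma) and from 227 ± 16.0 in siNC to 255 ± 3.71 in siFASRL (SD, n = 3) in LM3 (log2 fold change 0.17, adjusted p = 0.0298 by limma). The LM3 change of SLC43A3 did not pass the test after quantile normalization (0.010, adjusted p = 0.898 by limma) nor in 5 of 6 fits that left out 1 library (adjusted p up to 0.109). SLC38A1, a glutamine importer, rose by less than 0.25 log2 units in both lines (0.17 in HepG2 and 0.20 in LM3), and passed the test in neither after quantile normalization (adjusted p = 0.723 and 0.139 by limma). Among the 19 amino acid members not named above that were tested in HepG2, 9 fell and 5 rose, within -0.86 (SLC7A9) and 0.70 (SLC1A5). SLC7A9 was tested there through the control alone, where the filter allows only a fall. Among 15 in LM3, 9 fell and 3 rose, within -0.99 (SLC1A4) and 0.82 (SLC7A2).

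Other genes of amino acid supply changed as well. Of 12 companion genes of amino acid metabolism and sensing, 9 were listed, and of the 8 tested in each line 5 fell and 3 rose in HepG2 while 7 fell and 1 rose in LM3, beside 44.3% lower and 44.8% higher of all tested genes in HepG2 and 43.5% and 33.9% in LM3. GLUL, which makes glutamine, fell from 31.7 ± 0.79 in siNC to 13.0 ± 0.43 in siFASRL (SD, n = 3) in HepG2 (log2 fold change -1.22, adjusted p = 9.08e-08 by limma), and by less in LM3 (-0.69, difference 0.53, limma adjusted p = 3.57e-05). PHGDH, the first enzyme of serine synthesis, changed by -1.15 in HepG2 and -0.85 in LM3, and ASNS, which makes asparagine, by -0.80 and -1.07. The LM3 change of ASNS was short of the threshold with median-of-ratios scaling (-0.98) and after quantile normalization (-0.92). Besides ASNS, PSAT1 (-1.11) and SESN2 (-1.22) fell past the threshold in LM3, with changes of -0.59 and 0.23 in HepG2. ATF4 is the transcription factor of the amino acid response and was the only one of the 8 higher past the threshold in HepG2. It rose there from 134 ± 6.89 in siNC to 282 ± 5.72 in siFASRL (SD, n = 3) (log2 fold change 1.06, adjusted p = 2.72e-07 by limma). In LM3 it rose by 0.72 (adjusted p = 8.18e-06 by limma). ATF4, PSAT1 and SESN2 were named after their values were seen.

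**Figure D4:**
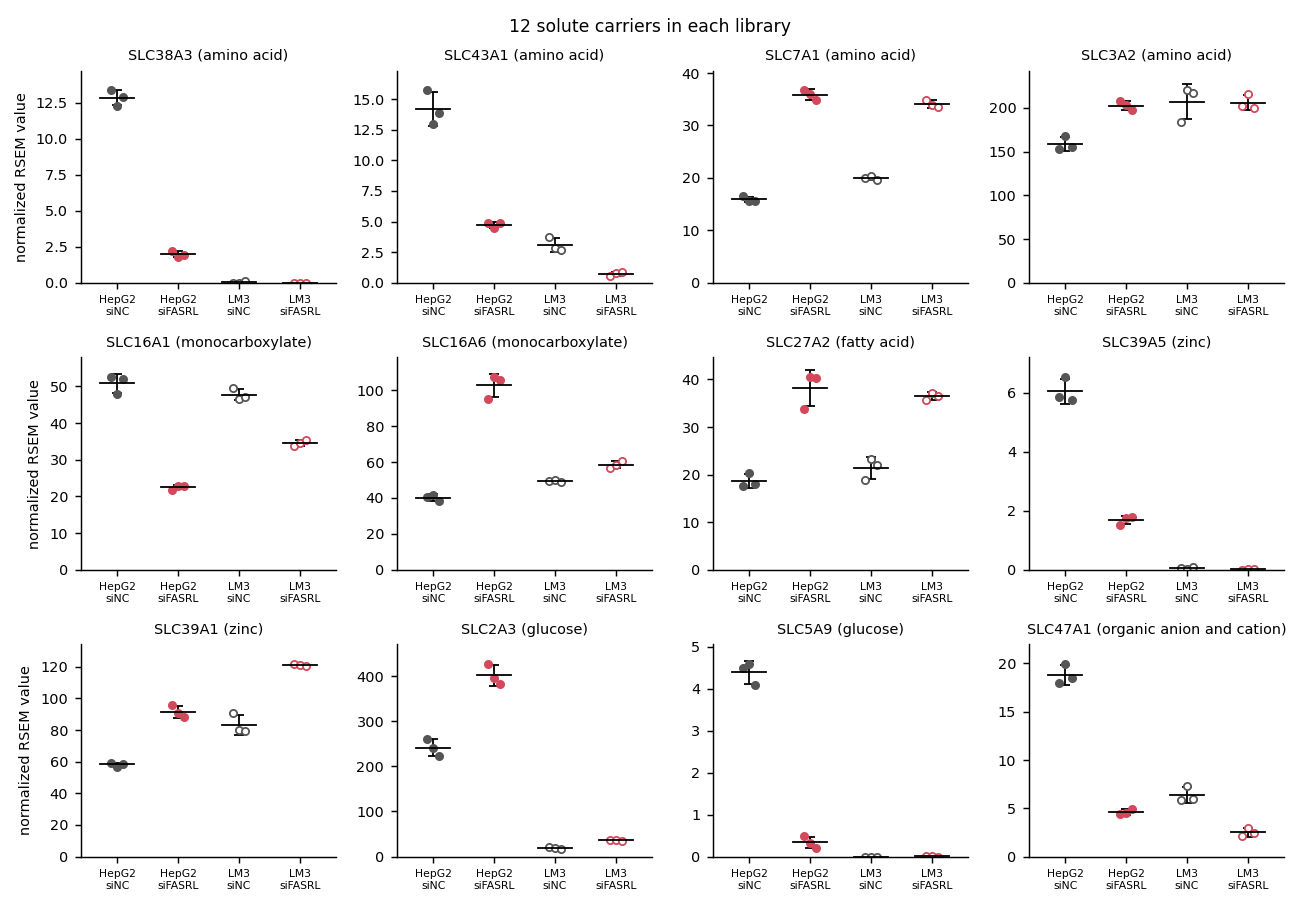
Normalized RSEM value of 12 solute carriers in each of the 12 libraries (dots), with the mean (bar) and SD (whiskers) of the 3 replicates of a group, where filled dots are HepG2 and open dots LM3, grey dots siNC and red dots siFASRL. SLC38A3, SLC39A5 and SLC5A9 are near 0 in LM3, and SLC16A6 rises from 40.2 to 103 in HepG2 but from 49.4 to 58.6 in LM3.

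Monocarboxylate carriers, which move lactate, pyruvate and ketone bodies, changed in both directions in HepG2. All 10 listed members belong to SLC16. In HepG2, 7 of 9 tested members fell and 2 rose (77.8% and 22.2%, against 44.3% and 44.8% of all tested genes), with a median of -0.73, and 2 were lower and 1 higher past the threshold, against 6.79% and 3.61%, of which 1 lower was left after quantile normalization. In LM3, 5 of 8 fell and 2 rose (62.5% and 25%, against 43.5% and 33.9%), with a median of -0.31, and 0 passed the threshold in either direction by limma, likewise at an unadjusted p under 0.05 for the higher direction.

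SLC16A6 (chr17:68267026-68291479) releases ketone bodies from hepatocytes. In HepG2 it had 40.7, 41.7 and 38.2 in siNC and 95.4, 108 and 106 in siFASRL (by limma a log2 fold change of 1.33 with a standard error of 0.066 and adjusted p = 1.58e-07), the largest rise of any tested member in that line. Its LM3 values were 49.4, 49.9 and 48.9 in siNC and 56.9, 58.4 and 60.5 in siFASRL (by limma a log2 fold change of 0.24 with a standard error of 0.049 and adjusted p = 0.00184). Every siFASRL library was above every siNC library in both lines, and the difference between the lines was -1.09, limma adjusted p = 2.05e-07.

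SLC16A1 (chr1:112911847-112956196), the widespread lactate and pyruvate carrier, had 52.6, 47.9 and 52.2 in siNC and 21.8, 22.8 and 22.9 in siFASRL in HepG2 (by limma a log2 fold change of -1.14 with a standard error of 0.059 and adjusted p = 2.04e-07). The LM3 libraries held 49.6, 46.6 and 47.2 in siNC and 33.8, 34.7 and 35.3 in siFASRL (by limma a log2 fold change of -0.45 with a standard error of 0.05 and adjusted p = 5.2e-05). The control levels of both lines were close and the groups of neither line overlapped, and the fall was smaller in LM3 (difference 0.69, limma adjusted p = 5.89e-06).

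SLC16A3, the lactate exporter of glycolytic cells, was the most abundant monocarboxylate member in both lines. It had 367, 409 and 339 in siNC and 269, 278 and 265 in siFASRL in HepG2 (by limma a log2 fold change of -0.45 with a standard error of 0.073 and adjusted p = 0.000257). In LM3 it had 62.6, 77.0 and 73.6 in siNC and 64.4, 65.8 and 62.3 in siFASRL, with overlapping groups (log2 difference -0.14, 95% confidence interval -0.32 to 0.04, limma adjusted p = 0.129). It did pass the test there after quantile normalization (-0.23) and without LM3 siNC replicate 1 (-0.23). SLC16A13, whose substrate is less well known, fell from 4.69 ± 0.47 in siNC to 1.74 ± 0.12 in siFASRL (SD, n = 3) in HepG2 (log2 fold change -1.05, adjusted p = 8.86e-07 by limma) and from 2.08 ± 0.32 in siNC to 0.60 ± 0.036 in siFASRL (SD, n = 3) in LM3 (log2 fold change -0.94, adjusted p = 7.84e-06 by limma). Without HepG2 siNC replicate 1 its HepG2 change was -0.99 and with quantile normalization -0.76, short of the threshold, whereas its LM3 change, which was tested through the control alone, passed it with a pseudocount of 0.1 (-1.63). Of the 7 companion genes of this class 3 were listed. PDK1 and MPC1 fell in both lines, and LDHA, lactate dehydrogenase, had log2 differences of 0.096 and -0.0031 (adjusted p = 0.181 and 0.960 by limma). These 3 were named after their values were seen.

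Fatty acid transport proteins form the SLC27 family, which couples uptake of long-chain fatty acids to their activation with coenzyme A. The 3 listed members could be tested in both lines. In HepG2, 2 rose and 1 fell, beside 44.8% and 44.3% of all tested genes, and in LM3, 1 rose and 1 fell, beside 33.9% and 43.5%, and 0 passed the threshold in either line by limma. SLC27A2 (chr15:50182196-50236385), the main member of liver with SLC27A5, had 17.6, 20.4 and 18.1 in siNC and 33.8, 40.6 and 40.2 in siFASRL in HepG2 (by limma a log2 fold change of 0.99 with a standard error of 0.084 and adjusted p = 3.55e-06). LM3 libraries had 18.8, 23.3 and 22.0 in siNC and 35.7, 37.2 and 36.6 in siFASRL (by limma a log2 fold change of 0.75 with a standard error of 0.077 and adjusted p = 3.32e-05). All siFASRL libraries were above all siNC libraries in both lines. Its HepG2 change lies at the threshold and passed it without HepG2 siFASRL replicate 1 (1.08), without HepG2 siNC replicate 2 (1.05), with median-of-ratios scaling (1.02) and with a pseudocount of 0.1 (1.03).

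SLC27A4, a widespread member, had 12.3, 12.7 and 11.9 in siNC and 17.9, 18.2 and 18.7 in siFASRL in HepG2 (by limma a log2 fold change of 0.54 with a standard error of 0.054 and adjusted p = 1.09e-05). Its LM3 values were 22.1, 29.4 and 29.0 in siNC and 30.1, 30.7 and 29.1 in siFASRL, and the groups overlapped, with siNC replicate 1 the lowest library (log2 difference 0.17, 95% confidence interval -0.07 to 0.40, limma adjusted p = 0.164). With median-of-ratios scaling the LM3 change of SLC27A4 passed the test (0.26, adjusted p = 0.0377 by limma). SLC27A1, the member of muscle and fat, was low, going from 4.45 ± 0.49 in siNC to 3.01 ± 0.11 in siFASRL (SD, n = 3) in HepG2 and from 3.33 ± 0.47 in siNC to 1.41 ± 0.11 in siFASRL (SD, n = 3) in LM3. It fell in both lines (log2 fold change -0.44, adjusted p = 0.000288 in HepG2 and -0.84, adjusted p = 2.51e-05 in LM3, by limma), and its LM3 change passed the threshold with a pseudocount of 0.1 (-1.17). Of the 10 companion genes of fatty acid uptake and activation 9 were listed, and 4 rose and 4 fell in HepG2 while 2 of 7 tested rose and 4 fell in LM3, beside 44.8% higher and 44.3% lower of all tested genes in HepG2 and 33.9% and 43.5% in LM3. ACSL5, an acyl-CoA synthetase, had 8.16, 8.0 and 6.79 in siNC and 22.9, 21.4 and 21.0 in siFASRL in HepG2 and 1.21, 1.15 and 1.12 in siNC and 0.44, 0.30 and 0.35 in siFASRL in LM3. It rose in HepG2, and in LM3 it could be tested only because of the control, where the filter allows only a fall. Its log2 fold changes were 1.40, adjusted p = 2.13e-07 and -0.67, adjusted p = 1.03e-05 by limma, and they differed by -2.07, limma adjusted p = 4.6e-09. FABP1, the fatty acid binding protein of liver, had 20.2, 12.1 and 17.7 in siNC and 1.74, 2.10 and 2.44 in siFASRL in HepG2 (by limma a log2 fold change of -2.49 with a standard error of 0.16 and adjusted p = 5.93e-07) and was listed at 0 in all LM3 libraries.

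Zinc carriers divide into exporters to the outside or to vesicles (SLC30) and importers to the cytosol (SLC39), with 8 listed members each. In HepG2, 10 of 16 tested zinc members fell and 5 rose (62.5% and 31.2%, against 44.3% and 44.8% of all tested genes), with a median of -0.39, and in LM3, 6 of 14 fell and 1 rose (42.9% and 7.14%, against 43.5% and 33.9%), with a median of -0.15 that was 0.057 after quantile normalization. The LM3 calls were 4 lower and 3 higher with median-of-ratios scaling, and 3 lower and 4 higher after quantile normalization. In HepG2, 7 of 8 SLC30 members fell and 1 rose, and 3 of 8 SLC39 members fell and 4 rose. After quantile normalization 5 SLC30 and 3 SLC39 members fell, and a difference between these families was not tested. In the threshold counts 2 members were lower in HepG2, against 6.79% of all tested genes, and 1 after quantile normalization, against 5.27%, while 0 passed in LM3 by limma.

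SLC39A5 (chr12:56230051-56237846), an importer of liver, pancreas and intestine, had 5.87, 6.54 and 5.74 in siNC and 1.51, 1.75 and 1.77 in siFASRL in HepG2 (by limma a log2 fold change of -1.40 with a standard error of 0.067 and adjusted p = 1.36e-07). It was under 0.09 in every LM3 library. SLC30A3, known for loading zinc into synaptic vesicles, was low in both lines and fell from 2.33 ± 0.26 in siNC to 0.51 ± 0.064 in siFASRL (SD, n = 3) in HepG2 (log2 fold change -1.14, adjusted p = 4.7e-07 by limma) and from 1.46 ± 0.12 in siNC to 0.24 ± 0.053 in siFASRL (SD, n = 3) in LM3 (log2 fold change -0.99, adjusted p = 1.78e-06 by limma). It was tested through the control alone in both lines. Its HepG2 change was -0.79 after quantile normalization, and its LM3 change passed the threshold without LM3 siFASRL replicate 3 (-1.02) and with a pseudocount of 0.1 (-2.2).

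SLC39A1 (chr1:153959110-153968184), an importer of the plasma membrane and the most abundant zinc member in both lines, rose. It had 59.2, 56.9 and 58.7 in siNC and 95.7, 90.6 and 88.1 in siFASRL in HepG2 (by limma a log2 fold change of 0.64 with a standard error of 0.056 and adjusted p = 4.41e-06) and 90.6, 80.2 and 79.3 in siNC and 122, 121 and 120.3 in siFASRL in LM3 (by limma a log2 fold change of 0.54 with a standard error of 0.062 and adjusted p = 6.77e-05). Neither line had overlapping groups. SLC39A6, next in level in HepG2, passed the test in neither line. Its HepG2 change was small (log2 difference 0.12, 95% confidence interval -0.03 to 0.27, limma adjusted p = 0.118), and the sign turned after quantile normalization (-0.0091). Its LM3 groups overlapped (log2 difference 0.013, 95% confidence interval -0.17 to 0.20, limma adjusted p = 0.886), and the sign turned without LM3 siFASRL replicate 3 (-0.035) and without LM3 siNC replicate 2 (-0.063). SLC30A5, which loads zinc into the secretory pathway, fell by similar amounts (log2 fold change -0.41, adjusted p = 0.000114 in HepG2 and -0.49, adjusted p = 5.38e-05 in LM3, by limma). SLC39A10 moved in opposite directions by small amounts (0.18 in HepG2 and -0.17 in LM3, difference -0.35, limma adjusted p = 0.00193), and the difference had an adjusted p of 0.130 after quantile normalization. Its LM3 change did not pass the test with either other scaling (-0.085 with median-of-ratios scaling).

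Metallothioneins, which bind zinc and are induced by it, rose in HepG2. All 7 companion genes of this class were listed, and the 6 that could be tested in HepG2 all rose, against 44.8% of all tested genes, also with median-of-ratios scaling and quantile normalization for the 5 metallothioneins among them. MT2A had 248, 312 and 228 in siNC and 1168, 1619 and 1427 in siFASRL in HepG2 (by limma a log2 fold change of 2.41 with a standard error of 0.14 and adjusted p = 3.03e-07) and 124, 198 and 186 in siNC and 143, 147 and 131 in siFASRL in LM3 (log2 difference -0.24, 95% confidence interval -0.60 to 0.11, limma adjusted p = 0.183). The HepG2 groups lay far apart and the LM3 groups overlapped, and the lines differed by -2.66, limma adjusted p = 1.3e-06. MT1E had 43.7, 52.8 and 45.6 in siNC and 129, 213 and 195 in siFASRL in HepG2 (by limma a log2 fold change of 1.87 with a standard error of 0.16 and adjusted p = 4.08e-06), and MT1G had 2.52, 4.99 and 2.50 in siNC and 12.3, 25.4 and 22.6 in siFASRL (by limma a log2 fold change of 2.27 with a standard error of 0.27 and adjusted p = 3.05e-05). MT1G was listed at 0 in all LM3 libraries. Of the 3 metallothioneins tested in LM3, MT1X fell without overlap of the groups (log2 fold change -0.72, adjusted p = 0.00709 by limma), also with both other scalings, after a rise of 0.61 in HepG2. MT1X was named after its values were seen. MT1E did not pass the test in LM3 (log2 difference -0.024, 95% confidence interval -0.43 to 0.38, limma adjusted p = 0.906), and its sign turned with median-of-ratios scaling (0.075) and in 3 of 6 fits that left out 1 library. LM3 siNC replicate 1 decided both calls, since without it the LM3 changes of MT2A (-0.45) and MT1E (-0.25) passed the test. Metallothionein genes are near-identical copies, so that reads may be split among them.

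The glucose class holds the facilitative carriers of SLC2, the sugar phosphate carriers of SLC37, SLC50A1, sodium-driven SLC5A9 and the transcription factor SLC2A4RG. In HepG2, 12 of 16 tested members fell and 4 rose (75% and 25%, against 44.3% and 44.8% of all tested genes), with a median of -0.58, and in LM3, 8 of 11 fell and 2 rose (72.7% and 18.2%, against 43.5% and 33.9%), with a median of -0.44. SLC5A9, SLC2A2 and SLC2A10 were tested in HepG2 through the control alone, where the filter allows only a fall. The HepG2 median was -0.095 with the filter of at least 5 and -0.26 after quantile normalization, and the LM3 median was -0.16 after quantile normalization. The 4 SLC37 members fell in both lines, with changes from -0.78 to -0.37 in HepG2 and from -0.71 to -0.44 in LM3, and all 4 also with median-of-ratios scaling and quantile normalization.

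SLC2A3 (chr12:7919230-7936187), a glucose carrier of high affinity found in neurons and many tumours, was the most abundant member of the class in HepG2. It had 259.8, 241 and 224 in siNC and 427, 396 and 381 in siFASRL in HepG2 (by limma a log2 fold change of 0.73 with a standard error of 0.072 and adjusted p = 9.17e-06). LM3 had lower values, with 21.0, 19.4 and 17.8 in siNC and 35.9, 35.9 and 35.2 in siFASRL (by limma a log2 fold change of 0.85 with a standard error of 0.065 and adjusted p = 6.48e-06). The siFASRL libraries were higher without overlap in both lines, and the changes of the lines differed by 0.11, limma adjusted p = 0.369. SLC2A3 shares much of its sequence with SLC2A14, and reads may be split between them.

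SLC5A9, a sodium-driven carrier of mannose and glucose, had 4.50, 4.60 and 4.08 in siNC and 0.48, 0.33 and 0.20 in siFASRL in HepG2 (by limma a log2 fold change of -2.02 with a standard error of 0.081 and adjusted p = 5.55e-08), with no siFASRL library at 1 or more. It was between 0 and 0.02 in LM3. SLC2A8, an intracellular hexose carrier, rose in HepG2 and fell in LM3, where it did not pass the test with median-of-ratios scaling (-0.14, adjusted p = 0.0886 by limma). It had 13.3, 16.2 and 12.6 in siNC and 18.2, 21.1 and 19.2 in siFASRL in HepG2 (by limma a log2 fold change of 0.45 with a standard error of 0.094 and adjusted p = 0.00124) and 21.7, 25.8 and 24.1 in siNC and 19.8, 19.6 and 20.9 in siFASRL in LM3 (by limma a log2 fold change of -0.23 with a standard error of 0.069 and adjusted p = 0.013). The groups did not overlap in either line, and the effects differed (LM3 minus HepG2 -0.69, limma adjusted p = 0.00064).

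SLC2A4RG and SLC50A1 had high siNC levels and small changes. SLC2A4RG rose by 0.24 in HepG2, where the groups overlapped, and by 0.18 in LM3 (adjusted p = 0.0203 and 0.0390 by limma). SLC50A1, a sugar exporter, rose by 0.18 in HepG2 (adjusted p = 0.0309 by limma), while its LM3 change did not pass the test (log2 difference -0.064, 95% confidence interval -0.19 to 0.06, limma adjusted p = 0.307) and turned to 0.033 with median-of-ratios scaling. After quantile normalization none of these rises passed the test (adjusted p = 0.304 and 0.481 for SLC2A4RG and 0.591 for SLC50A1 by limma). Of the 6 fits of a line that left out 1 library, SLC2A4RG did not pass in 4 of HepG2 and 3 of LM3, and SLC50A1 in 5 of HepG2. The LM3 rise of SLC2A4RG did not pass with the replicate number as a block either (adjusted p = 0.0579 by limma). In a joint fit of 12 libraries its adjusted p was 0.0561 by limma. The 11 other glucose members tested in HepG2 all fell, with changes from -0.92 (SLC2A2) to -0.37 (SLC37A3), and after quantile normalization 10 of them had an adjusted p under 0.05. The filter allowed SLC2A2 and SLC2A10 only a fall there. The 7 others tested in LM3 fell, with changes from -0.71 (SLC37A1) to -0.22 (SLC2A11), and after quantile normalization 5 of them fell and the highest change was 0.18. The members of the class that rose, 4 in HepG2 and 2 in LM3, were all named above, so these remainders are partly set by the naming. Of all tested genes 44.3% fell in HepG2 and 43.5% in LM3. TXNIP, an inhibitor of glucose uptake and the named companion of this class, had 25.7, 26.2 and 23.4 in siNC and 66.4, 65.2 and 67.9 in siFASRL in LM3 (by limma a log2 fold change of 1.37 with a standard error of 0.057 and adjusted p = 3.92e-07). In HepG2 it had 27.4, 30.6 and 28.7 in siNC and 29.2, 31.0 and 30.1 in siFASRL, with overlapping groups (log2 difference 0.060, 95% confidence interval -0.07 to 0.20, limma adjusted p = 0.351), and the sign turned after quantile normalization (-0.018). The lines differed by 1.31, limma adjusted p = 4.73e-08. The other listed companions, G6PC3 and GPI, fell in HepG2, and GPI fell in LM3, where G6PC3 had an adjusted p of 0.149 by limma. Both were named after their values were seen.

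Outside these classes stand the carriers of organic anions and cations. In HepG2, 5 of 11 tested members of that class were lower past the threshold, against 6.79% of all tested genes, also after quantile normalization. In LM3, 4 of 10 were, against 6.2%, of which 1 is not a carrier (SLC22A18AS), and after quantile normalization only SLC22A18 was left. Among those lower, the filter allowed only a fall for SLCO2B1 and SLC22A7 in HepG2. In LM3 this held for SLCO2B1 and SLC22A18AS. SLCO2B1 (chr11:75151107-75206549), which takes up steroid sulfates and drugs, had 4.55, 4.59 and 4.25 in siNC and 0.32, 0.23 and 0.44 in siFASRL in HepG2 (by limma a log2 fold change of -2.04 with a standard error of 0.069 and adjusted p = 2.73e-08). The LM3 libraries held 2.06, 2.18 and 1.93 in siNC and 0.33, 0.50 and 0.42 in siFASRL (by limma a log2 fold change of -1.11 with a standard error of 0.062 and adjusted p = 1.39e-06). Each siFASRL library was below 0.51 in both lines, so that it was tested through the control alone. Its LM3 change was -0.65 after quantile normalization, short of the threshold.

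SLC47A1 (chr17:19533854-19579034), an exporter of cationic drugs such as metformin, had 18.0, 20.0 and 18.4 in siNC and 4.44, 4.49 and 4.92 in siFASRL in HepG2 (by limma a log2 fold change of -1.82 with a standard error of 0.063 and adjusted p = 2.85e-08). In LM3 it fell from 6.38 ± 0.82 in siNC to 2.49 ± 0.42 in siFASRL (SD, n = 3) (by limma a log2 fold change of -1.08 with a standard error of 0.1 and adjusted p = 2.22e-05). The groups of neither line overlapped, and its LM3 change was -0.99 without LM3 siNC replicate 2 and -0.78 after quantile normalization, short of the threshold. SLC29A4, a carrier of monoamines, fell from 13.1 ± 1.16 in siNC to 3.12 ± 0.14 in siFASRL (SD, n = 3) in HepG2 (log2 fold change -1.77, adjusted p = 5.09e-08 by limma) and from 2.21 ± 0.22 in siNC to 0.38 ± 0.09 in siFASRL (SD, n = 3) in LM3 (log2 fold change -1.21, adjusted p = 1.8e-06 by limma). It was tested in LM3 through the control alone, and its change there was -0.76 after quantile normalization.

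On the log2(value + 1) scale, SLC22A18 (chr11:2899691-2925246) had the largest fall of any tested member in LM3. With a pseudocount of 0.1 the LM3 change of SLC30A3 was -2.2. SLC22A18 lies in the imprinted region of chromosome 11. It had 23.2, 27.6 and 28.1 in siNC and 6.09, 7.22 and 7.40 in siFASRL in LM3 (by limma a log2 fold change of -1.79 with a standard error of 0.091 and adjusted p = 9.6e-07) and 9.50, 13.4 and 12.2 in siNC and 3.97, 4.40 and 4.43 in siFASRL in HepG2 (by limma a log2 fold change of -1.26 with a standard error of 0.11 and adjusted p = 3.49e-06). No siFASRL library reached the siNC range. Its antisense neighbour SLC22A18AS (chr11:2887344-2903575) overlaps it and fell in LM3 from 3.25 ± 0.4 in siNC to 0.81 ± 0.078 in siFASRL (SD, n = 3) (log2 fold change -1.23, adjusted p = 2.12e-06 by limma, and -0.84 after quantile normalization), where it was tested through the control alone. The sources do not say whether reads were counted by strand, so reads of these overlapping genes cannot be told apart.

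SLC12A7, a potassium and chloride carrier, fell by nearly equal amounts in both lines. It had 6.28, 6.69 and 5.71 in siNC and 2.45, 2.50 and 2.45 in siFASRL in HepG2 (by limma a log2 fold change of -1.06 with a standard error of 0.063 and adjusted p = 4.26e-07) and 36.5, 43.3 and 42.9 in siNC and 18.7, 19.7 and 18.3 in siFASRL in LM3 (by limma a log2 fold change of -1.07 with a standard error of 0.073 and adjusted p = 3.77e-06). The groups did not overlap, and the changes differed by -0.011, limma adjusted p = 0.933, a difference whose sign turned with median-of-ratios scaling (0.059). Its change was short of the threshold in HepG2 after quantile normalization (-0.82) and in LM3 with median-of-ratios scaling (-0.97). With SLC43A1, SLC22A18, SLC29A4, SLC47A1 and SLCO2B1 it makes up the 6 members lower past the threshold in both lines, of 101 tested in both. Of all genes tested in both lines, 2.42% were lower past the threshold in both. The filter allowed SLC43A1, SLC29A4 and SLCO2B1 only a fall in LM3, and SLCO2B1 also in HepG2, which leaves 3 of the 6. With median-of-ratios scaling 5 of the 6 were lower past the threshold in both lines, and after quantile normalization only SLC22A18 was, against 2.03% and 1.70% of all genes.

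In HepG2, 5 more members outside the 5 classes fell past the threshold. SLC13A5, the citrate carrier of hepatocytes, had 18.0, 17.8 and 16.1 in siNC and 4.97, 3.71 and 3.94 in siFASRL in HepG2 (by limma a log2 fold change of -1.82 with a standard error of 0.091 and adjusted p = 1.64e-07), with each siFASRL library under every siNC library. SLC13A3, a dicarboxylate carrier, fell from 4.11 ± 0.42 in siNC to 0.77 ± 0.097 in siFASRL (SD, n = 3), and SLC22A7, an organic anion carrier, from 1.94 ± 0.25 in siNC to 0.14 ± 0.036 in siFASRL (SD, n = 3). SLC22A31, which is little studied, fell from 10.9 ± 1.24 in siNC to 2.63 ± 0.27 in siFASRL (SD, n = 3), and SLC12A3, the sodium and chloride carrier of kidney, from 36.4 ± 1.10 in siNC to 14.3 ± 0.36 in siFASRL (SD, n = 3). The log2 fold changes of these 4 were -1.53, -1.37, -1.71 and -1.28. SLC13A3 and SLC22A7 were tested through the control alone. In LM3 none of these 5 reached 1 in any library.

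In LM3, 4 more members fell past the threshold. SLC4A11, an ion carrier of corneal endothelium, had 4.60, 4.95 and 5.17 in siNC and 1.66, 1.52 and 1.04 in siFASRL in LM3 (by limma a log2 fold change of -1.30 with a standard error of 0.097 and adjusted p = 5.57e-06), and after quantile normalization its LM3 change was -0.96, short of the threshold. In HepG2 it had 19.1, 19.3 and 17.5 in siNC and 9.98, 8.43 and 8.36 in siFASRL (by limma a log2 fold change of -0.99 with a standard error of 0.076 and adjusted p = 1.94e-06), which passed the threshold without HepG2 siFASRL replicate 1 (-1.06), without HepG2 siNC replicate 3 (-1.03) and with a pseudocount of 0.1 (-1.06). The scaffold proteins SLC9A3R1 and SLC9A3R2, which anchor carriers to the cytoskeleton, fell from 46.6 ± 4.17 in siNC to 18.0 ± 0.75 in siFASRL (SD, n = 3) and from 14.9 ± 1.66 in siNC to 6.02 ± 0.54 in siFASRL (SD, n = 3). Their log2 fold changes were -1.32 and -1.18 in LM3, and -0.71 and -0.30 in HepG2. SLC22A18AS, described above, is the other member.

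Some members were tested in HepG2 but too low to be tested in LM3. Of these 29 members, 10 were lower past the threshold in HepG2, and their median log2 fold change was -0.82. Among all genes tested in HepG2 and not in LM3, 24.3% were lower past the threshold and the median was -0.66. The filter allowed 7 of the 29 only a fall, SLC5A9, SLC13A3 and SLC22A7 among the 10. Of the other 22, 7 were lower past the threshold, with a median of -0.71, against 25.4% and -0.64 for all such genes. Of the 101 members tested in both lines, 9 were lower past it in HepG2, against 4.9% of all such genes. Of the 29, 24 fell and 4 rose at an adjusted p under 0.05, against 72.2% and 25.8% of all genes tested in HepG2 and not in LM3, and a link to the hepatocyte marker loss given above was not tested.

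Members tested in both lines mostly moved alike, as did all genes tested in both, and a difference from all genes was not tested. At an adjusted p under 0.05 in each line, 56 of 101 were lower in both, 13 were higher in both and 5 moved in opposite directions. Of all genes tested in both lines, 36% were lower in both, 29.6% were higher in both and 5.31% moved in opposite directions. Across the 101 members, Pearson's r of the log2 fold changes was 0.783 and Spearman's rho 0.777, and across all 7349 genes they were 0.794 and 0.797. These correlations run across genes, which are not independent replicates, on a list that lacks slightly lower genes in HepG2.

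**Figure D5:**
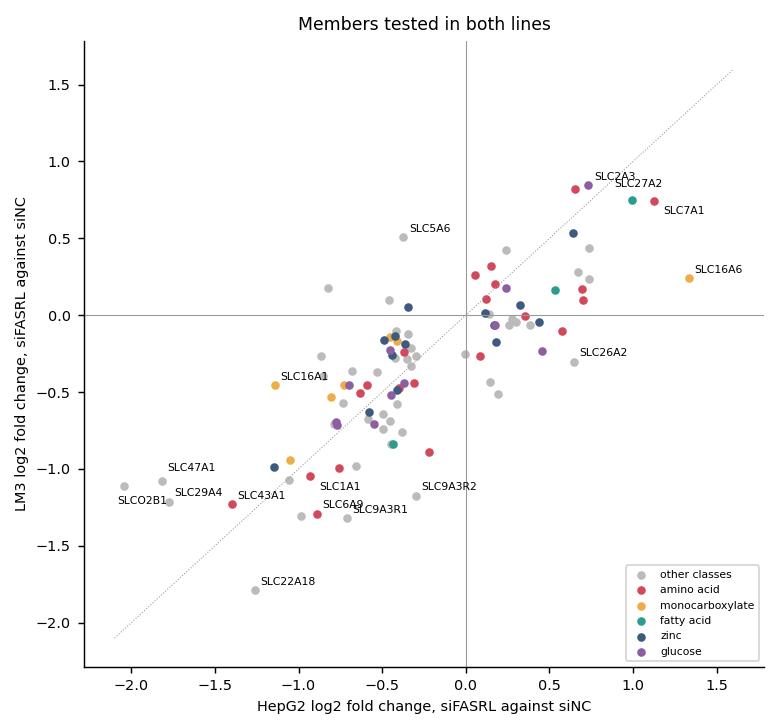
Log2 fold change of siFASRL against siNC in LM3 against that in HepG2 for the 101 members tested in both lines, coloured by class, with equal changes on the dotted line. Most members lie in the lower left, SLC16A6 lies far below the dotted line, and SLC5A6 and SLC26A2 lie where the lines move in opposite directions.

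The 5 members with opposite directions were SLC5A6, SLC26A2, SLC2A8, SLC12A8 and SLC39A10. Only SLC5A6 passed the test in both lines with all scalings. SLC5A6, the carrier of biotin and pantothenate, had 24.9, 23.5 and 22.8 in siNC and 19.7, 17.1 and 17.6 in siFASRL in HepG2 (by limma a log2 fold change of -0.37 with a standard error of 0.068 and adjusted p = 0.000547) and 11.1, 11.3 and 11.9 in siNC and 17.0, 16.5 and 16.4 in siFASRL in LM3 (by limma a log2 fold change of 0.51 with a standard error of 0.05 and adjusted p = 2.64e-05). The siFASRL libraries were lower in HepG2 and higher in LM3 without overlap (difference 0.88, limma adjusted p = 2.09e-06). SLC26A2, a sulfate carrier, had 2.90, 2.96 and 3.28 in siNC and 5.34, 5.23 and 5.44 in siFASRL in HepG2 and 3.19, 2.64 and 2.58 in siNC and 1.90, 2.21 and 2.13 in siFASRL in LM3. Its change was 0.65 in HepG2 and -0.30 in LM3, and the LM3 value turned to 0.098 after quantile normalization. SLC12A8 changed by 0.19 in HepG2 and -0.51 in LM3, at values under 2.5 in all libraries (LM3 adjusted p = 0.319 by limma after quantile normalization), and was tested in LM3 through the control alone, where the filter allows only a fall.

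The effect of the knockdown differed between the lines for 76 of 135 members with a testable difference (adjusted p under 0.05 of the interaction term), against 46.7% of all tested genes. Of these 135, 34 were not tested in both lines, and a gene near 0 in 1 line has little room to fall there on the log2(value + 1) scale. Among the 101 members tested in both lines 50 differed, against 42.5% of all genes tested in both. The LM3 effect was above the HepG2 effect for 16 of these members and below it for 34. Of the 3121 that differed among all genes tested in both lines, it was above for 1101 and below for 2020. The 5 largest differences among all 135 belonged to SLC38A3, SLC5A9, SLC13A5, SLC6A12 and SLC6A14, each of which fell in HepG2 and was under 0.31 in every LM3 library, so that these values restate the HepG2 falls. Among the 101 the largest was that of SLC16A6.

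Transporters of other kinds were counted alongside. Their counts stand beside 44.3% lower and 44.8% higher of all tested genes in HepG2 and 43.5% and 33.9% in LM3, with 6.79% and 6.2% lower past the threshold. Of the SLC25 mitochondrial carriers, 28 were listed, and 17 of 26 tested fell and 6 rose in HepG2 (median -0.47), while 15 of 24 fell and 5 rose in LM3 (median -0.29), with 2 lower past the threshold in each line. Of 26 listed ABC transporters, 18 of 23 fell and 4 rose in HepG2 (median -0.50), and 14 of 18 fell and 3 rose in LM3 (median -0.59). Past the threshold, 2 ABC transporters were lower in HepG2 and 5 in LM3, of which 2 were left with median-of-ratios scaling and 1 after quantile normalization. The differences between these groups and the solute carriers were not tested. Among the remaining classes of solute carriers, the 6 listed carriers of iron, copper, magnesium and heme all fell in HepG2, with changes from -0.85 to -0.50, and the 5 tested in LM3 all fell, with changes from -0.98 to -0.40, also with both other scalings.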

How the data were processed

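The values analysed are the normalized RSEM values that the authors deposited for 12 libraries of HepG2 and LM3, with 2 decimals and no unit named. The authors filtered reads with SOAPnuke, aligned them with HISAT2 and Bowtie2 and estimated expression with RSEM. The submitters' processing notes name hg19, whereas chromosome names in the tables are those of GRCh38, so coordinates were taken from RefSeq by gene ID. In 1 table, 6 further columns repeat the LM3 values and were not used, and 17 symbols turned into dates were restored. Samples were grouped by their labels. The limma package (3.58.1, under R 4.3.3) tested differences of log2(value + 1) within each line, and by an interaction term over all 12 libraries, two-sided, with a self-test on simulated data. Alternatives were another pseudocount, other filters, scalings and fold thresholds, a replicate block, a joint fit, an intensity trend and leaving out each library. Classes follow family numbers. Named members are those past the threshold in the 5 classes with the 3 most abundant per class, members past it in both lines or most changed in 1 line elsewhere, the 5 largest differences between lines, members with opposite directions, and up to 3 companions per class. The members and lists were chosen with earlier results of these data known. The non-hepatocyte marker lists are given with the other observations.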

Additional observations from a re-analysis of the deposited data

Results flagged for a closer look

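For 32 of the 45 named members, the knockdown had unlike effects in the lines (interaction term, adjusted p under 0.05), against 46.7% of all tested genes. Since members were named partly for such differences, for opposite directions or for passing the threshold in 1 line, this count is partly set by the choice. All 10 named for a difference or opposite directions are among the 32, with 22 of the other 35. The values below are the LM3 log2 fold change minus the HepG2 log2 fold change. Groups of 3 libraries were not searched for single outlying libraries.

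In 9 members a fall in HepG2 met values under 1 in all LM3 libraries, which leave little room for a fall. Except for SLC22A31, these differences therefore largely restate the HepG2 change. The 9 differences were 2.18 for SLC38A3, 2.03 for SLC5A9, 1.80 for SLC13A5, 1.75 for SLC6A12, 1.74 for SLC6A14, 1.54 for SLC13A3, 1.36 for SLC39A5, 1.34 for SLC22A31 and 1.28 for SLC22A7. SLC12A3, also under 1 in LM3, differed by 0.70, and with a pseudocount of 0.1 by -0.75, so that its direction depends on the pseudocount. With that pseudocount SLC22A31 differed by 0.50 (adjusted p = 0.385 by limma), so that the size of its difference depends on the pseudocount too.

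Members that fell in both lines and less in LM3 were SLCO2B1 (0.93), SLC47A1 (0.74), SLC16A1 (0.69) and SLC29A4 (0.56). SLC29A4 differed by -0.24 with a pseudocount of 0.1. SLC16A3 fell in HepG2 and did not pass the test in LM3. Its difference was 0.31 with an adjusted p of 0.0369, which was 0.0545 with a pseudocount of 0.1. It did not pass in 7 of 12 fits that left out 1 library, with an adjusted p up to 0.0858 (without HepG2 siNC replicate 2). Members that fell in both lines and more in LM3 were SLC9A3R2 (-0.88), SLC9A3R1 (-0.61), SLC22A18 (-0.53), SLC6A9 (-0.40) and SLC27A1 (-0.40). After quantile normalization the differences of SLC22A18 (-0.39, adjusted p = 0.0588) and SLC27A1 (-0.14, adjusted p = 0.334) did not pass the test. SLC22A18AS, tested only in LM3, differed by -0.61, and by -0.32 (adjusted p = 0.397) with a pseudocount of 0.1.

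Members that rose in HepG2 and less in LM3 were SLC16A6 (-1.09), SLC43A3 (-0.52) and SLC7A1 (-0.38). SLC27A4 (-0.37), SLC3A2 (-0.36) and SLC50A1 (-0.24) rose in HepG2 and did not pass the test in LM3. The difference of SLC50A1 had an adjusted p of 0.116 with median-of-ratios scaling and 0.172 after quantile normalization, and did not pass in 9 of 12 fits that left out 1 library. That of SLC27A4 had 0.0564 with median-of-ratios scaling and did not pass in 5 of the 12. The members with opposite directions were SLC26A2 (-0.95), SLC5A6 (0.88), SLC12A8 (-0.71), SLC2A8 (-0.69) and SLC39A10 (-0.35). SLC39A10 had an adjusted p of 0.130 after quantile normalization. Of these 5, only SLC5A6 passed the test in both lines with all scalings.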

How the results depend on the processing

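Depth is unknown, so the precision of a value rests on the spread of 3 replicates. Of 1269 alternatives run on the changes of single genes in 1 line, 16 were no longer past the threshold, 14 newly passed it, 15 changed sign and 1224 did none of these. At an adjusted p under 0.05 alone, whatever the size of the change, 35 lost and 5 gained the call. Of 1007 run on the differences between lines, 31 lost an adjusted p under 0.05, 12 gained it, 19 changed sign and 945 did none of these. The causes were not tested, except that stricter filters test fewer genes and a lower fold threshold calls more.

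In HepG2, the number past the threshold was 31 lower with a pseudocount of 0.1, 12 lower with a filter of at least 5, and 47 lower and 12 higher with a threshold of 1.5-fold. In LM3 the same settings gave 20, 7, and 31 lower with 4 higher, and quantile normalization gave 5 lower. With the filter of at least 5, 57 members fell in HepG2 and 43 in LM3 at an adjusted p under 0.05. The median log2 fold change in HepG2 was -0.51 with a pseudocount of 0.1, -0.37 with the filter of at least 5, -0.30 after quantile normalization and -0.44 to -0.40 without 1 library. In LM3 it was -0.34 with a pseudocount of 0.1, -0.18 with no filter, -0.24 with the filter of at least 5, -0.18 with median-of-ratios scaling, -0.14 after quantile normalization and -0.29 to -0.23 without 1 library. Leaving out a siNC library left 121 of 130 members tested in HepG2 and 96 of 106 in LM3, and the number lower past the threshold ranged from 13 to 20 in HepG2 and from 8 to 13 in LM3. Leaving out symbols of genes that are not carriers, asking for a mean value of at least 1 and asking for a library at 1 or more in each group were chosen after seeing the data. The last gave 14 and 8 members lower past the threshold in HepG2 and LM3, and the mean value of at least 1 gave 19 and 12 members lower past the threshold.

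The difference between lines changed sign with a pseudocount of 0.1 for SLC1A1 (0.075), SLC43A1 (-0.39), SLC16A13 (-0.25), SLC30A3 (-0.20), SLC12A7 (0.19), SLC29A4 (-0.24), SLC12A3 (-0.75) and PHGDH (-0.035). With median-of-ratios scaling the sign changed for SLC3A2 in LM3 (0.095), SLC50A1 in LM3 (0.033), MT1E in LM3 (0.075) and the differences of SLC2A4RG (0.010) and SLC12A7 (0.059). After quantile normalization it changed for SLC39A6 in HepG2 (-0.0091) and its difference (0.098), the difference of SLC4A11 (0.16), SLC26A2 in LM3 (0.098) and TXNIP in HepG2 (-0.018). Without 1 library the ranges that crossed 0 were -0.087 to 0.043 for SLC3A2 in LM3, -0.063 to 0.070 for SLC39A6 in LM3, -0.25 to 0.10 for MT1E in LM3, and for the differences -0.0018 to 0.056 for SLC38A1, -0.14 to 0.0021 for SLC2A4RG and -0.089 to 0.041 for SLC12A7.

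With the replicate number as a block, 19 members were lower and 2 higher past the threshold in HepG2, and 12 lower and 0 higher in LM3. Replicates of equal number correlated at 0.32, 0.37 and -0.20 in HepG2 and at -0.08, 0.12 and -0.17 in LM3 after group means were removed (8144 and 7483 genes). Those of unequal number correlated at -0.46 to 0.30 in HepG2 and at -0.12 to 0.19 in LM3. Deviations from a mean of 3 libraries are tied to each other, so these values cannot decide whether the numbers pair the libraries.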

Other observations

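Markers of other cell types were compared between the groups as a check of the cultures. Of 6 fibroblast markers 5 were listed, and they summed to 70.6, 70.9 and 72.2 in HepG2 siNC and 35.4, 32.3 and 33.3 in siFASRL, with COL3A1 the most abundant in siNC. In LM3 they summed to 15.1, 14.3 and 13.2 in siNC and 4.69, 5.86 and 5.25 in siFASRL. Of 4 endothelial markers only VWF was listed, at 0.35 or less in every library. Of 4 immune markers only CD68 was listed, which is also expressed by tumour cells, with means of 41.1 and 44.9 in HepG2 siNC and siFASRL and 14.9 and 17.5 in LM3. The 4 cholangiocyte markers went in sum from 515, 554 and 508 in HepG2 siNC to 1040.4, 1095 and 1054 in siFASRL, and from 188, 213 and 216 to 357, 368 and 359 in LM3, most of it KRT7. In HepG2 the means of KRT7 and KRT19 were higher in siFASRL and those of EPCAM (31.5 to 15.3) and SOX9 (34.2 to 25.6) lower. In LM3 only that of KRT7 was higher. Their part in the carrier changes was not tested.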
